A study of Mus musculus with 6 samples.

Results

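Retnla, which encodes the secreted resistin-like protein RELM alpha, is described here beside 9 genes that mark macrophages or blood cells: Mrc1, Cd163, Folr2, Clec10a, Mgl2, Csf1r, Adgre1, Cd68 and Laptm5. These 10 genes were picked from 52636 listed genes by their symbols, as genes of alternative activation and of tissue-resident macrophages set beside genes of macrophages or leukocytes in general. All 10 were found in the count tables. They were chosen with the comparison of irradiated and untreated glands already known, so their differences between the groups are given as a description, without a test of their own.

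RNA had been sequenced from the parotid gland, a salivary gland of mainly enzyme-secreting acinar cells, of FVB mice, an inbred strain, labelled as 28 days old. Of 6 samples, 3 were untreated and 3 were irradiated, with 1 dose of 5 Gy per mouse. The sentence naming the dose stands on all 6 samples and was applied to the treated group alone, and neither the time from irradiation to collection nor the number of mice per sample was given in the sources used here. The series title names dysfunction of the salivary gland after radiation as the question. No allele, transgene or other agent is named for either group.

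Macrophages are phagocytes that live in most tissues and clear dying cells and debris. Many of them depend on signals through the receptor encoded by Csf1r. When they meet the type 2 cytokines interleukin-4 or interleukin-13, the transcription factor STAT6 switches on a set of genes in mice that includes Retnla, Arg1, Chil3, Mrc1, Clec10a and Mgl2, a state called alternative activation. Retnla is not restricted to macrophages: in mice it is also known from fat tissue, eosinophils and airway epithelium. In whole-gland RNA, fewer cells of a type and less RNA per cell cannot be told apart.

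The stretch before the start of Retnla is shown because this gene had the largest difference of the 10. It lies at chr16:48842359-48842550 (GRCm38.p6, the assembly of mm10, plus strand), 192 bases that end just before the first transcribed base of the mm10 gene annotation. The sequence is from RefSeq, and capitals mark, from left to right, a match to GAGGAA on the opposite strand (the core of PU.1 sites), a match to TTCNNNNGAA (the STAT6 palindrome) and a match to TTGCNNAA (a CEBP pattern).
Retnla: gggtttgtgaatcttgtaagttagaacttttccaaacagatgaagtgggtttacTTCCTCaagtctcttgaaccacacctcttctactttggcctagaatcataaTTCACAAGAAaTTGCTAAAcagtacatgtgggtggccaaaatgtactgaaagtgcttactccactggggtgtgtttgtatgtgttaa
The RefSeq start (48842609) lies 58 bases after the start of the mm10 annotation, just before which the printed stretch ends. Counted from the RefSeq start, the match TTCACAAGAA began 145 bases before it and TTGCTAAA 134 bases before it, so the capitals of these 2 patterns stand next to each other without overlap. Both strands were searched from 250 bases before to 50 after each RefSeq start. The table held windows for 7 of the 10 genes, and over all 32851 windows 6.95% held TTCNNNNGAA, 10.8% held TTGCNNAA, 0.84% held both and 28.3% held GAGGAA. Among the 7 genes, 1 window held TTCNNNNGAA (Retnla), 2 held TTGCNNAA (Retnla and Cd68) and 5 held GAGGAA (Retnla, Mrc1, Mgl2, Cd68 and Laptm5). The shorter STAT pattern TTCNNNGAA, found in 8.3% of all windows, was in 0 of the 7. A match describes the letters only.

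Gene counts per library ran from 7108359 to 15036193. Irradiated replicate 2 was the shallowest and stood apart in its reads: its unaligned share was 10.01%, beside 3.75% to 4.33% elsewhere, and 184 reads were listed as too low in alignment quality, against 342749 to 491591. Levels are given as CPM, the usual count unit relative to library size, with sizes scaled by the TMM method. Fold changes are irradiated over untreated from edgeR's quasi-likelihood fit over all genes, with the standard error (SE). By this test, with Benjamini-Hochberg adjustment and a threshold of 0.05, 129 of 12885 tested genes differed, which is 1.00%. Of these, 84 (0.652%) were higher and 45 (0.349%) lower in irradiated glands. All 10 genes described here were among those tested, 1 of them past the threshold as higher (Laptm5) and 1 as lower (Retnla). The groups did not overlap in CPM for 6 of the 10, 5 with every irradiated library below every untreated one and 1 above. Over all tested genes each of these patterns was found for 10.6%, and since the genes were chosen on this contrast nothing is read from the counts.

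**Figure D1:**
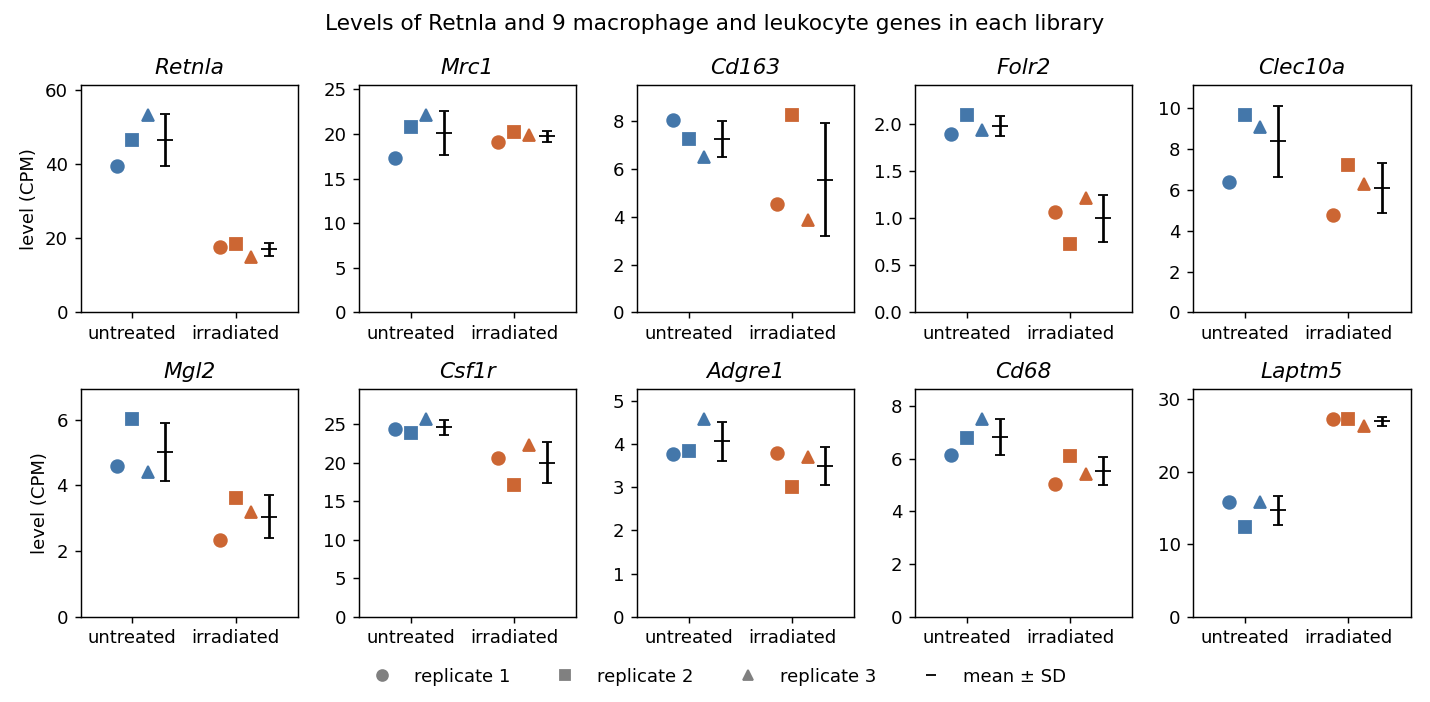
Level (CPM, linear axis from 0) of each of the 10 genes in the 3 untreated (blue) and 3 irradiated (orange) libraries, with marker shapes for replicates and black bars for mean ± SD. Retnla sits at 15.0 to 18.4 CPM in irradiated libraries and 39.4 to 53.3 CPM in untreated ones, while Laptm5 shows the opposite order and Mrc1 overlaps.

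Retnla (ENSMUSG00000061100; chromosome 16, 48842551 to 48844461, mm10, plus strand) had 480, 532 and 800 counts in untreated replicates 1, 2 and 3 and 265, 153 and 174 in irradiated replicates 1, 2 and 3. Scaled, these were 39.4, 46.4 and 53.3 CPM against 17.6, 18.4 and 15.0 CPM. Every irradiated library was far below every untreated one, and the shallow irradiated replicate 2 was the highest of its group. The means were 46.4 ± 6.92 and 17.0 ± 1.77 CPM (SD, n = 3 each), a log2 fold change of -1.45 (SE 0.13), which is 2.73-fold lower in irradiated glands. Without irradiated replicate 2 the log2 fold change was -1.51. Over the 6 fits that leave out 1 library each it ran from -1.56 to -1.34. Retnla has a short transcript of 599 bases, and once fold changes were adjusted for length and GC content of transcripts it stood at -1.24. None of its 50-base stretches occurred in transcripts of another gene.

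Retnla was also the most abundant of the 10 per length, in both groups. Per kilobase of exon, untreated glands had 77.4 ± 11.6 and irradiated glands 28.4 ± 2.95 CPM per kb (SD, n = 3). The next gene stood 14.2-fold lower in untreated glands (Cd68) and 3.99-fold lower in irradiated ones (Laptm5). Below Retnla, the untreated order on this per-length scale was Cd68 at 5.43 ± 0.543, Csf1r at 4.26 ± 0.169, Laptm5 at 3.87 ± 0.540 and Mrc1 at 3.15 ± 0.391 CPM per kb. Clec10a followed at 2.89 ± 0.600, Mgl2 at 2.39 ± 0.423, Cd163 at 1.33 ± 0.140, Folr2 at 1.28 ± 0.0702 and Adgre1 at 1.26 ± 0.140. Among neighbours from Csf1r to Mgl2, and among the last 3, the ranges of mean ± SD overlapped. In irradiated glands Laptm5 moved up to the place after Retnla, at 7.11 ± 0.153 CPM per kb, and Folr2 was last at 0.645 ± 0.162.

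The other members of the resistin-like family were low or absent. Retn, which encodes resistin, a hormone of fat cells in mice, had 45, 30 and 112 counts in untreated and 86, 46 and 24 in irradiated libraries. Its groups overlapped, at 4.59 ± 2.54 and 4.44 ± 2.05 CPM (SD, n = 3), with a log2 fold change of -0.073 (SE 0.50, edgeR adjusted p = 0.969). Retnlg had at most 2 counts in any library and Retnlb had 0 in all 6, so neither was tested.

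Among the C-type lectins, Mrc1 encodes the mannose receptor CD206, an endocytic receptor for sugars on glycoproteins (ENSMUSG00000026712; chromosome 2, 14229392 to 14332057). It had 211, 238 and 333 counts in untreated and 287, 168 and 231 in irradiated libraries. The scaled levels, 17.3, 20.8 and 22.2 against 19.1, 20.2 and 19.9 CPM, overlapped completely, with all irradiated libraries inside the untreated range. The log2 fold change was -0.030 (SE 0.13). It was negative in 13 of 15 fits and positive in the other two.

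Clec10a and Mgl2 encode the galactose-type lectins MGL1 and MGL2, which bind galactose and N-acetylgalactosamine on glycans. They are neighbours on chromosome 11 (70156197 to 70170834 and 70130329 to 70137550), 18646 bases apart. Clec10a had 78, 111 and 136 counts in untreated and 72, 60 and 73 in irradiated libraries, or 6.41, 9.69 and 9.05 against 4.79, 7.20 and 6.29 CPM. Irradiated replicates 1 and 3 were below all untreated libraries and irradiated replicate 2 was not, so the groups overlapped. Its log2 fold change was -0.48 (SE 0.21), and -0.32 without irradiated replicate 1. Mgl2 had 56, 69 and 66 counts in untreated and 35, 30 and 37 in irradiated libraries, or 4.60, 6.02 and 4.39 against 2.33, 3.60 and 3.19 CPM. Here every irradiated library was below every untreated one, with a log2 fold change of -0.74 (SE 0.27). The 2 genes are similar in sequence: 9.02% of the 50-base stretches of Clec10a transcripts and 13.1% of those of Mgl2 occurred in another gene, mainly each in the other, and reads from such stretches may be missing from both counts. With the counts of both genes summed the log2 fold change was -0.57 (SE 0.18).

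Cd163 encodes the scavenger receptor that takes up haemoglobin bound to haptoglobin (ENSMUSG00000008845; chromosome 6, 124304656 to 124330527). It had 98, 83 and 98 counts in untreated and 68, 69 and 45 in irradiated libraries. In CPM these were 8.05, 7.24 and 6.52 against 4.52, 8.28 and 3.88. Irradiated replicates 1 and 3 were below the untreated libraries, whereas irradiated replicate 2 was the highest of all 6. The log2 fold change was -0.42 (SE 0.25) with all libraries and -0.78 without irradiated replicate 2, so that this library moved the value by more than 1.5 times. Without irradiated replicate 3 it was -0.23.

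Folr2 encodes the folate receptor beta of resident macrophages (ENSMUSG00000032725; chromosome 7, 101839988 to 101857194, minus strand). It was the least covered of the 10 genes, with 23, 24 and 29 counts in untreated and 16, 6 and 14 in irradiated libraries. The levels were 1.89, 2.09 and 1.93 against 1.06, 0.720 and 1.21 CPM, and every irradiated library was below every untreated one. Its log2 fold change was -0.95, the largest negative value after that of Retnla, but its SE of 0.41 was also the largest. An antisense gene, Gm10602, covers 63.1% of the exon bases of Folr2, and since the strand setting of the counting is not given, reads of the pair cannot be assigned with certainty. Gm10602 had 31, 35 and 44 counts in untreated and 38, 14 and 36 in irradiated libraries.

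Of the genes of macrophages in general, Csf1r encodes the receptor for the growth factors CSF1 and interleukin-34 (ENSMUSG00000024621; chromosome 18, 61100598 to 61132149). It had 296, 273 and 386 counts in untreated and 311, 142 and 259 in irradiated libraries, at 24.3, 23.8 and 25.7 against 20.7, 17.0 and 22.3 CPM. Each irradiated library was below the lowest untreated one, with a log2 fold change of -0.29 (SE 0.12). Of its exon bases, 15.1% are shared with Hmgxb3 on the opposite strand.

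Adgre1 encodes F4/80, a surface receptor long used to recognise mouse macrophages (ENSMUSG00000004730; chromosome 17, 57358691 to 57483527). Its 46, 44 and 69 untreated and 57, 25 and 43 irradiated counts gave 3.78, 3.84 and 4.59 against 3.79, 3.00 and 3.71 CPM. The groups overlapped, and the log2 fold change was -0.21 (SE 0.26). Without untreated replicate 3 it was -0.11 and without irradiated replicate 2 it was -0.12. Cd68 encodes a glycoprotein of the lysosomes of phagocytes (ENSMUSG00000018774; chromosome 11, 69664213 to 69666153, minus strand). It had 75, 78 and 113 untreated and 76, 51 and 63 irradiated counts, at 6.16, 6.81 and 7.52 against 5.05, 6.12 and 5.43 CPM. The groups came within a narrow gap of each other without overlap, and the log2 fold change was -0.32 (SE 0.20).

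Laptm5, a lysosomal membrane protein of blood cells of many kinds (ENSMUSG00000028581; chromosome 4, 130913125 to 130936141), had the opposite sign to the other 9. It had 193, 141 and 238 counts in untreated and 411, 227 and 305 in irradiated libraries. The levels were 15.9, 12.3 and 15.8 against 27.3, 27.3 and 26.3 CPM, with every irradiated library far above every untreated one. Its log2 fold change was 0.87 (SE 0.13), which is 1.83-fold higher, and ran from 0.76 to 0.93 over the fits that leave out 1 library each. The spread within the irradiated group was small, at a coefficient of variation of 2.14%, against 14.0% in untreated glands, where replicate 2 was lowest.

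**Figure D2:**
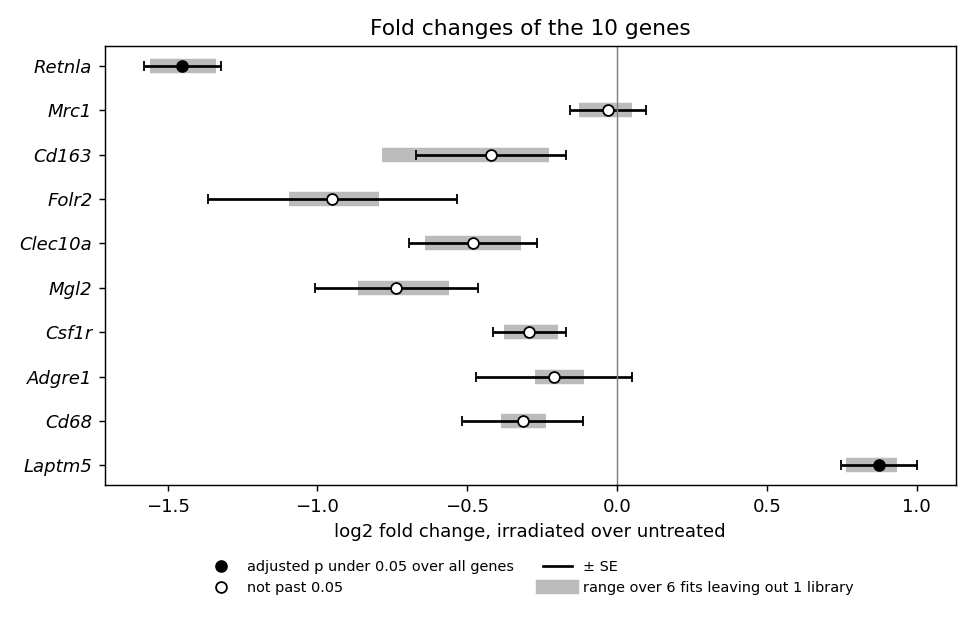
Log2 fold change (irradiated over untreated) of each of the 10 genes with its SE, filled where the adjusted p over all genes was under 0.05, and grey bars for the range over the 6 fits that leave out 1 library. Retnla at -1.45 and Laptm5 at 0.87 stand at opposite ends, and the grey bar is widest for Cd163, from -0.78 to -0.23.

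The 10 genes spread widely: the median log2 fold change was -0.37, beside -0.0067 over all tested genes, and 9 of 10 were negative, beside 50.9% of all tested genes. Relative to the same library's macrophage genes, a ratio that library scaling does not touch, Retnla was lower in irradiated glands. The ratio uses the same Retnla counts as the fold change, so it is a description and no further evidence for a difference. Its CPM divided by the summed CPM of Mrc1, Cd163, Folr2, Clec10a, Mgl2, Csf1r, Adgre1 and Cd68 was 0.544, 0.578 and 0.650 in untreated and 0.287, 0.278 and 0.227 in irradiated libraries. The groups were well apart, with means of 0.591 ± 0.0545 and 0.264 ± 0.0322 (SD, n = 3), 2.24-fold lower in irradiated glands. The summed level of those 8 genes was itself 72.5, 80.3 and 81.9 CPM in untreated and 61.3, 66.1 and 65.9 CPM in irradiated libraries. Divided by a separate list of 25 pan-macrophage genes, the Retnla ratio was 2.84-fold lower. The same ratio for Laptm5, over the 8 genes, was 0.188 ± 0.0329 in untreated and 0.419 ± 0.0243 in irradiated glands.

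**Figure D3:**
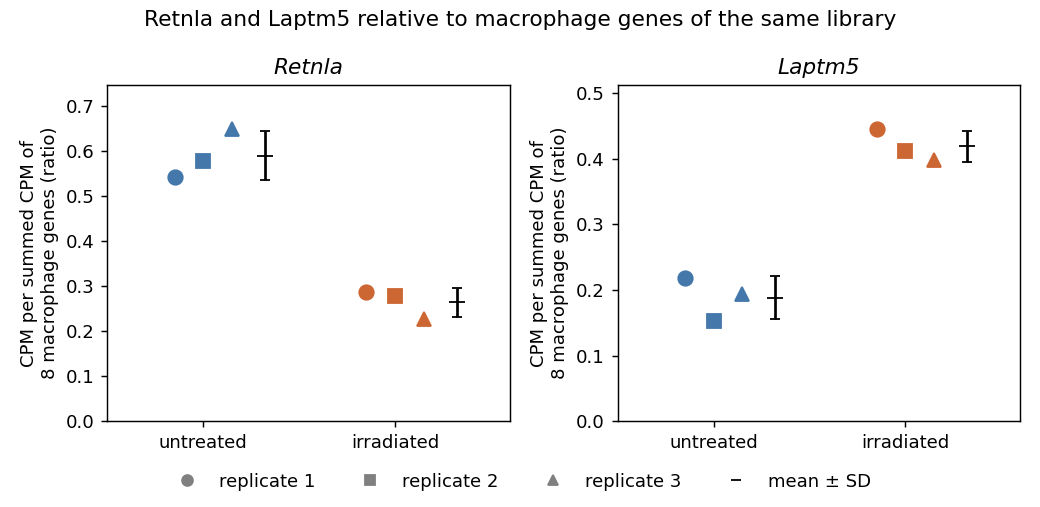
CPM of Retnla (left) and Laptm5 (right) divided by the summed CPM of 8 macrophage genes in the same library, on linear axes from 0, with black bars for mean ± SD. Retnla lies between 0.544 and 0.650 in untreated and between 0.227 and 0.287 in irradiated libraries, and Laptm5 lies in the reverse order.

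Other genes of these pathways were taken from lists that leave the 10 genes out. Of 21 further genes of alternative activation, 15 were tested, 2 rose, 0 fell and 13 did not pass, with a median log2 fold change of 0.21. Il4ra, the receptor chain shared by interleukin-4 and interleukin-13, rose by 1.08 on the log2 scale, with means of 5.42 ± 1.88 in untreated and 11.5 ± 1.61 CPM in irradiated libraries (SD, n = 3; SE 0.22, edgeR adjusted p = 0.0187). Ccl22, a chemokine of macrophages and dendritic cells, rose by 1.93 (SE 0.42, edgeR adjusted p = 0.0286), from 20, 4 and 15 to 47, 36 and 49 counts. Neither call was firm: that of Il4ra ended when untreated replicate 1 or 3 or irradiated replicate 1 or 2 was dropped, and that of Ccl22 was kept only without untreated replicate 1. Arg1, the arginase of the urea cycle and the classical partner of Retnla in this state, did not pass. It stood at 99.2, 110.4 and 97.7 CPM in untreated and 95.0, 78.3 and 105.4 in irradiated libraries. Per kilobase of exon its untreated mean was 46.0 CPM per kb, beside 5.43 for Cd68 and 4.26 for Csf1r. The cells that Arg1 came from were not tested, so its level is not read as one of macrophages. The same holds for Retnla, at 77.4 CPM per kb in untreated glands. Stat6 stood at a log2 fold change of -0.046 (edgeR adjusted p = 0.903), and Chil3 had a mean of 0 CPM in untreated and 0.188 in irradiated glands and was not tested. Arg1, Stat6 and Chil3 were named after their values were seen.

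Of 13 type 2 cytokines and their receptors, 5 were tested and 0 passed edgeR's test, with a median of 0.075 (1 gene at an unadjusted p under 0.05, and 0 called by DESeq2 or limma-voom). Il33, an alarm cytokine of epithelium and stroma, stood at 6.81 ± 0.454 and 7.06 ± 0.785 CPM, and Il13ra1, a chain of the interleukin-13 receptor, at 6.54 ± 1.81 and 6.97 ± 0.842 CPM (SD, n = 3). The cytokine genes Il4, Il5 and Il13 had means of at most 0.301 CPM in either group and were not tested, so a difference in them was not detectable at this depth.

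Of 20 further genes of tissue-resident macrophages, 18 were tested, 0 rose, 1 fell and 17 did not pass, with a median of 0.11. Cbr2, a carbonyl reductase, fell by 0.70 on the log2 scale, with means of 38.7 ± 2.36 in untreated and 23.9 ± 2.72 CPM in irradiated libraries (SD, n = 3; SE 0.12, edgeR adjusted p = 0.00417). Its 485, 412 and 604 untreated and 314, 218 and 285 irradiated counts did not overlap once scaled, and the call was kept in all 15 fits. Of 25 pan-macrophage genes, 24 were tested, 1 rose, 0 fell and 23 did not pass, with a median of 0.080. Mpeg1, a pore-forming protein of macrophages that B cells also express, rose from 18.5 ± 2.35 to 28.4 ± 1.27 CPM, by 0.62 (SE 0.12, edgeR adjusted p = 0.0151). Dropping untreated replicate 2 or irradiated replicate 1 ended that call, as did limma-voom, no robust shrinkage and the adjustment for length and GC. The pan-macrophage list summed to 323.8 to 352.3 CPM in untreated and 348.6 to 363.7 CPM in irradiated libraries, so its ranges overlapped.

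Of 6 genes around the CSF1 receptor 4 were tested and 0 passed by edgeR, with a median of 0.20 (1 gene at an unadjusted p under 0.05, and 0 called by DESeq2 or limma-voom). The ligand Csf1 stood at 12.7 ± 0.784 and 15.2 ± 1.86 CPM and the ligand Il34 at 4.95 ± 0.906 and 5.46 ± 0.467 CPM (SD, n = 3). Of 18 monocyte and inflammatory macrophage genes 5 were tested and 0 passed by edgeR, with a median of 0.60 (3 genes at an unadjusted p under 0.05, and 0 called by DESeq2 or limma-voom). Among the most abundant was Cd38, an ectoenzyme on immune cells, with 0.54 on the log2 scale (SE 0.17). The 3 genes at an unadjusted p under 0.05 were Cd38, Cd86 and Ccr2, and they did not share a sign. Ccr2, a chemokine receptor named after its values were seen, was the 1 negative gene of the 5, at -0.58 (SE 0.26). It stood at 4.76, 4.71 and 4.79 CPM in untreated and 3.72, 3.36 and 2.41 in irradiated libraries. Over all genes, 1929 of 12885 had an unadjusted edgeR p under 0.05.

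**Figure D4:**
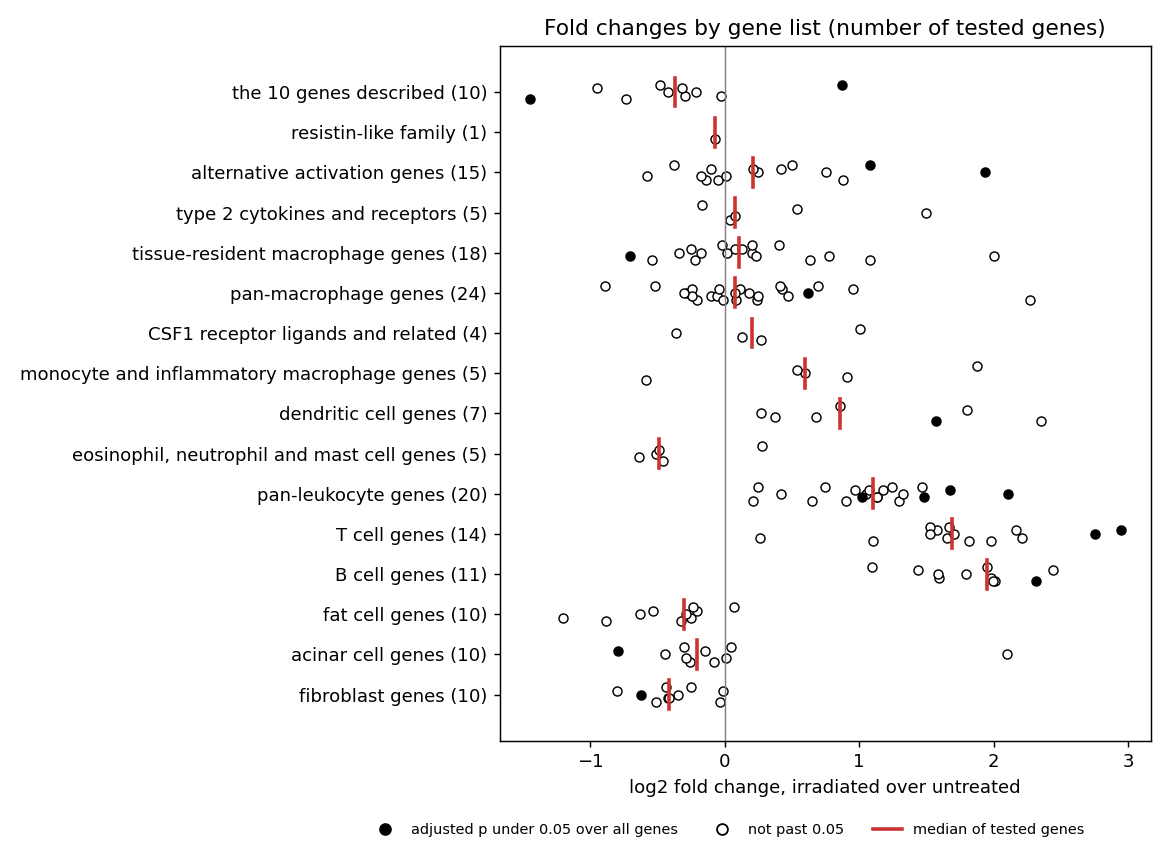
Log2 fold change (irradiated over untreated) of each tested gene by list, filled where the adjusted p over all genes was under 0.05, with red lines for medians. The further resident and pan-macrophage lists centre near 0, at 0.11 and 0.080, while pan-leukocyte, T cell and B cell lists lie to the right of 0 throughout.

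Genes of leukocytes in general are given beside Laptm5. Of 20 pan-leukocyte genes all were tested, 4 rose, 0 fell and 16 did not pass, with a median of 1.10 and 0 negative values. DESeq2 called 11 of them and limma-voom 1, beside 191 and 25 of the 12885 genes tested. Ikzf1, the transcription factor Ikaros of blood cells, rose by 2.11 (SE 0.27, edgeR adjusted p = 0.00161), from 53, 20 and 36 to 151, 100 and 171 counts. Arhgdib, a gene of blood cells, rose by 1.02 (SE 0.19, edgeR adjusted p = 0.0138), a call that ended when replicate 2 of either group was dropped. The summed level of the list was 308.6 to 343.3 CPM in untreated and 439.5 to 522.7 CPM in irradiated libraries. Most of that sum came from Lcp1 and Cd44, named after their values were seen. Lcp1 had means of 137.0 CPM in untreated and 158.3 in irradiated libraries, and Cd44 of 96.6 and 114.6. For both genes the groups overlapped, with log2 fold changes of 0.21 and 0.25. The cells these 2 transcripts came from were not tested. T cell genes summed to 11.5 to 31.3 against 56.2 to 73.8 CPM and B cell genes to 8.03 to 48.5 against 83.9 to 93.3 CPM, in both lists lowest in untreated replicate 2, which was also the untreated library lowest in Laptm5. Their part in the value of Laptm5 was not tested.

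Of 14 tested T cell genes (of 15) 2 rose and 12 did not pass, with a median of 1.69, and of 11 tested B cell genes (of 12) 1 rose and 10 did not pass, with a median of 1.95. Cd5, Cd8b1 and Bank1 were those that rose, by 2.95, 2.76 and 2.32 on the log2 scale. Dropping untreated replicate 1 or 2 or irradiated replicate 2 ended the Cd8b1 call, and dropping irradiated replicate 1 that of Bank1. All 3 calls, that of Cd5 included, were also lost by limma-voom and without robust shrinkage. DESeq2 called 3 T cell and 2 B cell genes and limma-voom 0 of either. Of 12 dendritic cell genes 7 were tested, 1 rose and 6 did not pass, with a median of 0.86. Irf8, a transcription factor of dendritic cells, monocytes and B cells, rose from 3.03 ± 1.26 to 9.04 ± 0.271 CPM (SD, n = 3), by 1.57 (SE 0.25, edgeR adjusted p = 0.00321).

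Granulocyte and mast cell, fat cell, fibroblast and acinar genes were listed in the same way. Of 18 eosinophil, neutrophil and mast cell genes 5 were tested and 0 passed by edgeR, with a median of -0.49; the 5 were mast cell genes (1 gene at an unadjusted p under 0.05, and 0 called by DESeq2 or limma-voom). Cpa3, a mast cell protease, stood at 3.91 ± 1.55 and 2.99 ± 1.80 CPM (SD, n = 3), while Kit, which gland epithelium also expresses, stood at 35.7 ± 3.89 and 43.1 ± 6.16 CPM. In this list 5 genes had 0 counts in every library, and the eosinophil genes Siglecf, Prg2 and Epx, named after their values were seen, had means of at most 0.0274 CPM in either group.

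Of 10 fat cell genes all were tested and 0 passed by edgeR, with a median of -0.31 and 9 negative values (0 genes at an unadjusted p under 0.05, and 0 called by DESeq2 or limma-voom). Car3, an abundant carbonic anhydrase of fat and muscle, stood at 255.5 ± 94.2 and 209.1 ± 62.4 CPM, and Lpl, the lipoprotein lipase, at 141.8 ± 44.9 and 120.4 ± 22.7 CPM (SD, n = 3). The list summed to 524.6 to 1001 CPM in untreated and 415.9 to 697.6 CPM in irradiated libraries, and the ranges overlapped. Of 10 fibroblast genes all were tested, 1 fell and 9 did not pass, with a median of -0.42 and 10 negative values. Pi16, a marker of one kind of fibroblast, fell from 33.7 ± 5.19 to 21.9 ± 2.69 CPM, by 0.62 on the log2 scale (SE 0.13, edgeR adjusted p = 0.0239), a call kept only without untreated replicate 1 or irradiated replicate 3 among the fits that leave out 1 library. Of 10 acinar cell genes, which define the gland and summed to 385231 to 521824 CPM per library, 1 fell, Car6, the secreted carbonic anhydrase, by 0.79 (SE 0.18), a call lost in 5 of 6 such fits and kept without irradiated replicate 3, and 9 did not pass, with a median of -0.20. In the acinar list Prol1, named after its values were seen, had 3678 counts (441.5 CPM) in irradiated replicate 2. In every other library it stood at 32.7 to 40.8 CPM. That library therefore stood apart in this gene as well as in its reads, and the cause was not tested. The part of fat cells, fibroblasts and acinar cells in the level of Retnla was not tested.

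The 5 genes whose log2 CPM followed Retnla most closely over the 6 libraries were Gpx1 (Pearson r = 0.997), Klk1b27 (0.993), Rock1 (0.987), Arl6ip4 (0.987) and Rpl35a (0.985). They encode a glutathione peroxidase, a kallikrein-type protease, a protein kinase, a nuclear protein and a ribosomal protein. The points share their libraries and their split into groups, so the likeness holds the group difference. None of these genes passed edgeR's test, at log2 fold changes of -0.15, -0.67, -0.31, -0.36 and -0.37, all much smaller than that of Retnla. With any 1 library left out, at most 2 of the 5 remained among the 5 closest.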

How the data were processed

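The deposited tables hold raw counts of reads for each Ensembl gene of the mouse, which the authors made with HISAT2 and HTSeq on mm10, per the submitters' processing notes; versions, annotation release and strand setting are not given in the sources used here. Rows naming no gene (32.4% to 40.7% of reads) were left out. Symbols matched for 52403 of 52636 genes; coordinates and exon lengths are from GENCODE on mm10. Tests used edgeR 4.0.16 (R 4.3.3; TMM, filterByExpr with minimum count 10, robust quasi-likelihood), Benjamini-Hochberg adjusted; SE is the fold change over the root of F. Levels per kb divide CPM by union exon length. The procedure was tested on simulated data. The 10 genes and the lists were chosen with earlier results of these data known. Named genes: the 10, the resistin-like family, per list the 2 called genes of smallest p or else the 2 most abundant, and the 5 closest to Retnla. Predicted genes (names with Gm, Rik, AC or AL) were left out of those 5. One gene named by this rule is not reported here. No protein sequences were used here, so likeness was counted in 50-base stretches of transcripts. Nothing says that samples of a group came from separate mice, so p-values cover only how these samples vary. No pair of libraries was alike enough to be a duplicate. Alternatives were other scaling, tests, filters, a replicate block, length and GC correction, and leaving out each library.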

Additional observations from a re-analysis of the deposited data

How the results depend on the processing

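Over 15 fits Retnla was lower and past the threshold in all 15 (log2 fold change -1.56 to -1.24). Laptm5 was higher and past it in all 15 (0.76 to 1.02), and none of the other 8 genes passed in any. The fits reuse the libraries on which the choice of the genes rested. They show only how far the values depend on the processing and are no further evidence for a difference. With a length and GC correction Retnla stood at -1.24 and Mrc1 at -0.17. Scaling by library totals alone moved the median of all genes to 0.14. There Mrc1 stood at 0.12, Cd68 at -0.17, the medians at 0.35 for alternative activation, 0.22 for pan-macrophage and -0.063 for acinar genes, and 259 genes were called higher and 22 lower (92.2% higher, against 65.1%). Counts of genes higher and lower were 20 and 5 by limma-voom, 21 and 5 without robust shrinkage, and 279 and 239 without a filter, which also put the median of the monocyte list at 1.04. DESeq2 called 70 lower. Replicate numbers did not pair the libraries (correlations of deviations 0.020, -0.11 and -0.11), and with a replicate block 39 genes were higher and 14 lower; 1 of the 3 untreated libraries was closest to its own number.

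Leaving out 1 library gave 31 to 83 genes higher and 14 to 72 lower. The counts fell to 31 and 14 without irradiated replicate 1, and those lower were 29, 21 and 72 without untreated replicate 1, untreated replicate 2 and irradiated replicate 3. List medians ran from 0.0071 to 0.17 for alternative activation, -0.0032 to 0.59 for type 2 cytokines, 0.68 to 1.88 for dendritic cells, -0.64 to -0.048 for granulocytes and mast cells, -0.51 to -0.17 for fibroblasts and -0.29 to -0.17 for acinar genes. The medians of the resident (-0.057 to 0.14), pan-macrophage (-0.013 to 0.10) and fat cell lists (-0.52 to 0.026) and the value of Retn (-0.35 to 0.48) also changed sign. The log2 difference of Retnla per macrophage genes was -1.16, -1.50 over the pan-macrophage list and -1.001 over the geometric mean of the 8 genes. Of the 5 genes closest to Retnla, 0 to 2 remained without 1 library. By Spearman correlation 30 genes were tied at the highest value, 1 of the 5 (Rpl35a) among them, and 0 of the 5 were left when ties were broken by abundance. Of 14 called genes of the lists, 3 (Cbr2, Irf8 and Ikzf1) were called in all 15 fits, and the other 11 were lost by limma-voom and without robust shrinkage. The causes were not tested. With 6 to 29 counts, Folr2 is limited by depth.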

Other observations

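Within the list of tissue-resident macrophage genes, 3 surface receptors, chosen after their values were seen, had every irradiated library above every untreated one without passing edgeR's test. In the same list 3 genes had every irradiated library below (Cbr2, F13a1 and Selenop), and over all tested genes each pattern was found for 10.6%. Marco, a scavenger receptor of macrophages in lymphoid tissue and lung, had 51, 0 and 40 counts in untreated and 174, 61 and 103 in irradiated libraries. That is 4.19, 0 and 2.66 against 11.6, 7.32 and 8.88 CPM, with an edgeR adjusted p of 0.423. Timd4, a receptor for phosphatidylserine on dying cells, stood at 5.09, 2.62 and 7.12 against 8.51, 10.3 and 7.15 CPM (edgeR adjusted p = 0.231). Cd209b, a C-type lectin known from macrophages of spleen and lymph node, stood at 11.2, 3.05 and 12.7 against 15.0, 12.7 and 14.4 CPM (edgeR adjusted p = 0.661). All 3 were lowest in untreated replicate 2, the library that also had the lowest summed levels of T cell genes (11.5 CPM) and B cell genes (8.03 CPM). Their relation to the lymphocyte genes was not tested. The untreated levels of Retnla were lowest in replicate 1, an order of 3 values from which nothing is read. Its relation to the lymphocyte genes was not tested either.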
